A study of Arabidopsis thaliana with 9 samples.

Results

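The starch breakdown genes examined were BAM5, CT-BMY, SEX1, SEX4, DPE2, ISA3, AMY3 and MEX1, 8 of the 24635 genes with counts in the deposited tables. Their symbols gave 7 of them directly, whereas MEX1 is listed as RCP1 and was found through that synonym in the RefSeq annotation. RNA with poly(A) tails was sequenced, with strand kept, from whole Arabidopsis thaliana seedlings, 6 days old per the design text, in 9 libraries, 3 in each of 3 groups. The first group was melinoe, an EMS mutant of the FMN/FHY gene At4g21470. The second was Col-0, the wild type, given riboflavin over 8 hours of the dark cycle, and the third was Col-0 without it. All groups grew on medium with 1% sucrose in a photoperiod of 16 light and 8 dark hours. The riboflavin dose is 0.6 mM in the sample labels and 0.2 mM in the design text, and the labels give neither a mock treatment nor the hour at which the untreated groups were collected. Riboflavin and the hour of collection therefore cannot be told apart, and melinoe is represented by 1 line.

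Leaves store part of the day's carbon as starch granules in the chloroplast and break it down at night. A glucan, water dikinase places phosphate on the granule, which opens it to beta-amylases that release maltose. Phosphatases take the phosphate off again, debranching enzymes cut branch points, and maltose leaves through an exporter to be used by a glucanotransferase in the cytosol. Transcripts of many of these enzymes are known to rise and fall over the day. In whole seedlings, fewer cells of a type and less RNA per cell cannot be told apart.

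Of the 8 genes, 7 fell and 1 rose in melinoe, and 7 fell with riboflavin, both against untreated Col-0. Of all genes tested, 25.2% fell and 25.4% rose in melinoe, and 37.4% fell and 36.8% rose with riboflavin. The count with riboflavin was 6 in 10 of 15 other fits, where SEX1 lost its call. BAM5, a beta-amylase outside the chloroplast known from phloem, had the lowest fold change of the 8 in both comparisons, 18.8-fold lower in melinoe and 4.44-fold lower with riboflavin. The other 6 genes that fell had log2 fold changes of -0.83 to -0.38 in melinoe and of -1.12 to -0.09 with riboflavin. CT-BMY, the chloroplast beta-amylase also called BAM3, rose slightly in melinoe and did not pass the test with riboflavin. All 8 passed the filter on low counts in each comparison, and they were chosen with earlier results of these data known. Both comparisons use the same untreated Col-0 libraries.

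**Figure D1:**
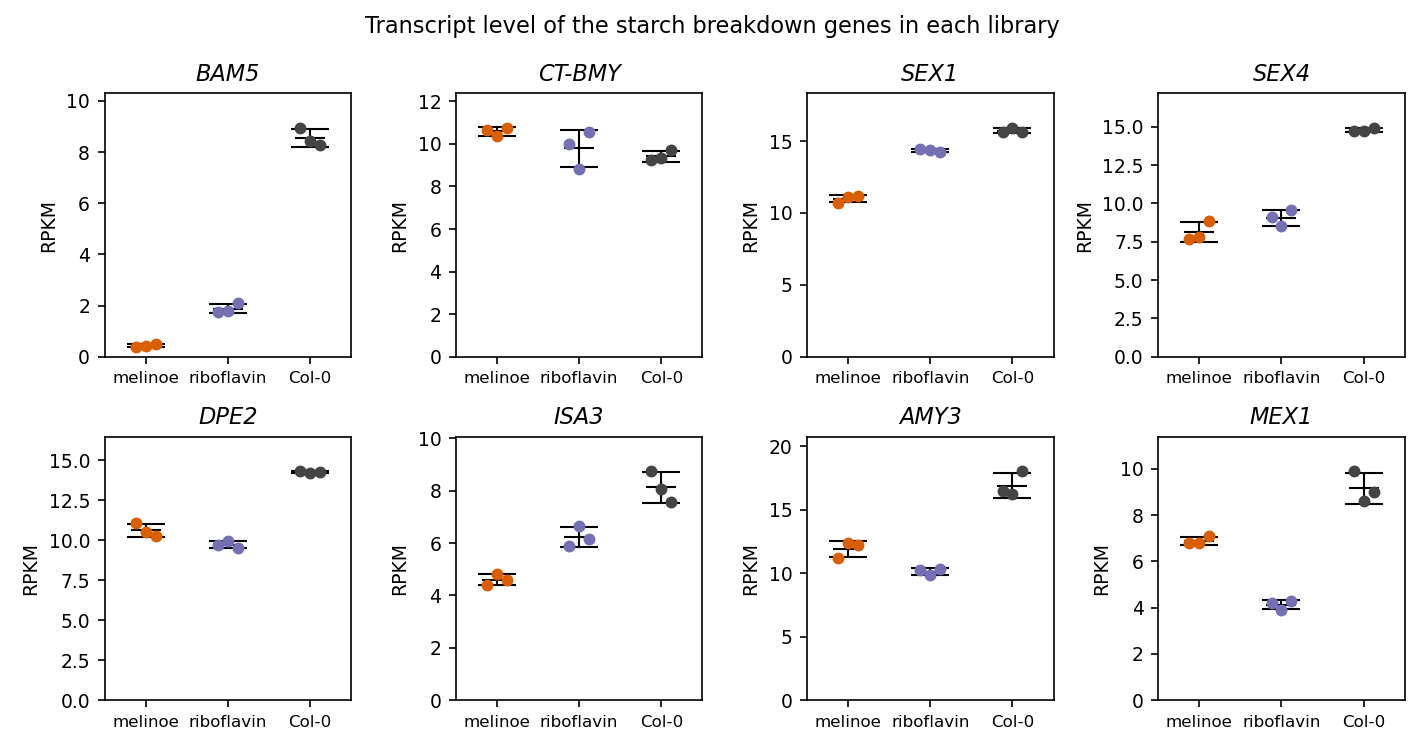
Level of each of the 8 genes (vertical axis from 0, reads per kilobase of transcript per 1000000 counts, scaled by gene) in each library of melinoe, riboflavin-treated Col-0 and untreated Col-0 (points, with the mean and SD of 3 libraries). BAM5 lay between 0.388 and 0.512 in melinoe, against 8.26 to 8.95 in Col-0.

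RefSeq places the genes as follows on TAIR10.1. BAM5 (AT4G15210) lies on chromosome 4, 8666334 to 8669526, minus strand, with 7 exons in the transcript with the longest coding sequence. CT-BMY (AT4G17090) lies on chromosome 4, 9604962 to 9607402, minus strand, with 4 exons, and 2 annotated genes on the opposite strand, AT4G17085 and the long non-coding AT4G06665, overlap it. Whether the counting used strand is not given in the sources used here, so counts of CT-BMY may hold reads of these neighbours. No annotated gene overlaps any of the other 7. SEX1 (AT1G10760) lies on chromosome 1, 3580830 to 3590928, minus strand, with 35 exons, and AMY3 (AT1G69830) on chromosome 1, 26288228 to 26293173, minus strand, with 13 exons. DPE2 (AT2G40840) lies on chromosome 2, 17044932 to 17051062, plus strand, with 23 exons, and SEX4 (AT3G52180) on chromosome 3, 19349600 to 19353728, minus strand, with 13 exons. ISA3 (AT4G09020) lies on chromosome 4, 5783909 to 5789100, plus strand, with 24 exons, and MEX1 (AT5G17520) on chromosome 5, 5772568 to 5775417, minus strand, with 9 exons.

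Promoter windows were read because most of the 8 genes moved in one direction. Those of BAM5, for its fold change, and of SEX1 and ISA3, which alone of the 8 held a searched motif, are shown. Each runs from 250 bases before the annotated gene start to 50 bases after it, 5′ to 3′ on the strand of the gene, with matches in capitals (RefSeq, TAIR10.1). They are chr4:8669477-8669776 on the minus strand for BAM5, chr1:3590879-3591178 on the minus strand for SEX1 and chr4:5783659-5783958 on the plus strand for ISA3.
BAM5: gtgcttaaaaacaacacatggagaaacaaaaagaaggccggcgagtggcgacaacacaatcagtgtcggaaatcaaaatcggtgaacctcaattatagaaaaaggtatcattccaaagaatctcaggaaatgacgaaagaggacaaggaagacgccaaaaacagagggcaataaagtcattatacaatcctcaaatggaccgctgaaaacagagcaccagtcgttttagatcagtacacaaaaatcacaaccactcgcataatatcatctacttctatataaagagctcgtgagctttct
SEX1: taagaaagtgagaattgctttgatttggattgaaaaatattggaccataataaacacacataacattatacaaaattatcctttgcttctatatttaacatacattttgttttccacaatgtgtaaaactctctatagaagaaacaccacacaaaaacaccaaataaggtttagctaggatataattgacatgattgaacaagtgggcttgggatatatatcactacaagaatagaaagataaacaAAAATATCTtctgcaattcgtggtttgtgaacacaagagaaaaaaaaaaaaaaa
ISA3: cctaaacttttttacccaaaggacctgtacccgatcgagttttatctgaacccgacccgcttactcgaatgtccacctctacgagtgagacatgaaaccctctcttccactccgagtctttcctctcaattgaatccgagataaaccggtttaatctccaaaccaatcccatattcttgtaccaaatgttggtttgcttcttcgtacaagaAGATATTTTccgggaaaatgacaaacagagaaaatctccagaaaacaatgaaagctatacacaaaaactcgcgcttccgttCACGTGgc
Both strands were searched for the evening element AAAATATCT, known to be bound by clock proteins, the G-box CACGTG and the sequence TATCCA, none of which contains another. An evening element was found in 2 of the 8 windows, with its first base at -4 from the gene start in SEX1 and at -39 in ISA3, where it reads on the opposite strand, and in 2.82% of the windows of 27443 genes. A G-box was found in 1 of the 8, ISA3, at base 43, and in 7.68% of all windows. TATCCA was in 0 of the 8 and in 16.1% of all windows. These matches describe letters only.

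In melinoe against Col-0, 7 of the 8 genes fell, where 25.2% of the 20277 genes tested fell, and 1 rose, where 25.4% rose, by edgeR's quasi-likelihood test at an adjusted p of 0.05 over all genes. Because the 8 genes and the lists beside them were chosen with earlier results known, such contrasts with all genes are descriptions only. The libraries of the groups did not overlap for 8 of the 8, where 56.7% of genes did not. The median log2 fold change was -0.47 over the 8, -0.47 without BAM5 and -0.0032 over all genes tested. BAM5 alone was at least 2-fold lower, as were 2.40% of genes.

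With riboflavin, 7 of the 8 fell, where 37.4% of the 20356 genes tested fell, and 0 rose, where 36.8% rose. Without any 1 of the 6 libraries, with DESeq2 or its size factors, without the filter on low counts or with the replicate block, 6 fell. The libraries did not overlap for 7 of the 8, where 75.6% of genes did not. The median log2 fold change was -0.59 over the 8, -0.51 without BAM5 and -0.0027 over all genes tested. BAM5 and MEX1 were at least 2-fold lower, as were 9.94% of genes. Summed over the 8 genes, the level was 64.2 RPKM ± 1.26 in melinoe, 65.3 RPKM ± 1.42 with riboflavin and 96.9 RPKM ± 1.27 in Col-0 (SD, n = 3 each).

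**Figure D2:**
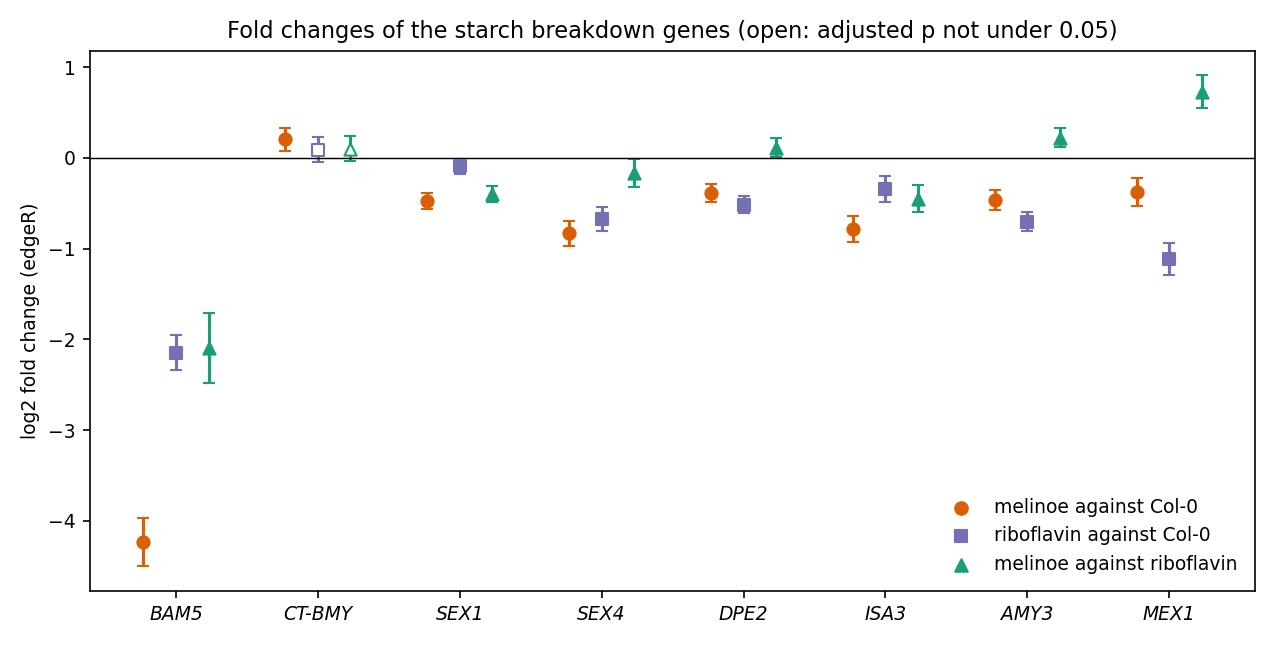
Log2 fold change of each of the 8 genes (vertical axis, edgeR estimate with its 95% interval) in melinoe against Col-0, riboflavin-treated against untreated Col-0, and melinoe against riboflavin-treated Col-0; open symbols did not pass an adjusted p of 0.05. BAM5 stood at -4.23, -2.15 and -2.09, and MEX1 at -0.38, -1.12 and 0.73.

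Of the enzymes that release maltose, BAM5 is a beta-amylase of the cytosol and is also known to be induced by sugar. BAM5 had 0.388, 0.423 and 0.512 RPKM in melinoe, 1.76, 1.79 and 2.08 RPKM with riboflavin and 8.95, 8.44 and 8.26 RPKM in Col-0. RPKM here is the deposited count per kilobase of the annotated transcript and per 1000000 counts of the library, computed from the counts. No library of one group overlapped another, and melinoe was lowest. The values rest on few reads in melinoe, with counts of 16, 18 and 22 there, 76, 78 and 89 with riboflavin and 396, 367 and 358 in Col-0. BAM5 fell in melinoe by edgeR's quasi-likelihood test (log2 fold change -4.23 ± 0.130 SE, adjusted p = 1.56e-20), at place 6 from the bottom of the 20277 genes tested. It also fell with riboflavin by edgeR's quasi-likelihood test (log2 fold change -2.15 ± 0.0935 SE, adjusted p = 1.98e-17), at place 234 from the bottom of 20356.

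CT-BMY is a main beta-amylase of starch breakdown in leaves at night. CT-BMY had 10.6, 10.4 and 10.8 RPKM in melinoe, 9.998, 8.81 and 10.6 RPKM with riboflavin and 9.23, 9.33 and 9.70 RPKM in Col-0. The melinoe libraries lay above those of Col-0, while the riboflavin libraries spanned both. CT-BMY rose in melinoe by edgeR's quasi-likelihood test (log2 fold change 0.20 ± 0.0608 SE, adjusted p = 0.00651; 0.0059 to 0.0389 under the alternatives). The authors' deposited table gives it a q-value of 0.0516. With riboflavin its log2 fold change was 0.09, with a 95% interval of -0.05 to 0.23 (edgeR's quasi-likelihood test, adjusted p = 0.228; 0.0391 to 0.717 under the alternatives). Without riboflavin library B it passed edgeR's quasi-likelihood test, at 0.16 (adjusted p = 0.0391).

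The rest of the family shows how much of its transcript these genes made up. BAM1, a chloroplast beta-amylase known for roles under stress, held the largest share. BAM1 had 49.4, 45.5 and 46.8 RPKM in melinoe, 75.3, 74.5 and 74.7 RPKM with riboflavin and 56.6, 58.6 and 59.1 RPKM in Col-0. The groups did not overlap, with riboflavin highest and melinoe lowest. BAM1 fell in melinoe, at a log2 fold change of -0.26, and rose with riboflavin, at 0.40. BAM4, a chloroplast member without catalytic activity that promotes starch breakdown, likewise fell in melinoe, at -0.52, and rose with riboflavin, at 0.40. BAM9, another member without catalytic activity, rose in melinoe, at 0.25, and had -0.06 with riboflavin (edgeR's quasi-likelihood test, adjusted p = 0.239). BAM2, also of the chloroplast, fell in both, at -0.27 and -1.38. BAM6 had 0 to 3 counts in any library and was not tested.

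Beta-amylase transcripts of these 7 genes summed to 115 RPKM ± 2.32 in melinoe, 145 RPKM ± 2.31 with riboflavin and 136 RPKM ± 1.47 in Col-0 (SD, n = 3 each). Of that sum BAM5 held 0.384% ± 0.058 in melinoe, 1.29% ± 0.104 with riboflavin and 6.27% ± 0.263 in Col-0 (SD, n = 3 each). CT-BMY held 9.21% ± 0.151 in melinoe, 6.73% ± 0.587 with riboflavin and 6.91% ± 0.158 in Col-0 (SD, n = 3 each). Every riboflavin library had a larger family sum than every Col-0 library, although BAM5 was lower. The sum includes BAM4 and BAM9, both without catalytic activity. On average BAM4 held 12.8% of it in melinoe, 19.1% with riboflavin and 15.8% in Col-0. BAM9 held 30.3% in melinoe, 19.15% with riboflavin and 21.9% in Col-0. The nuclear relatives BAM7 and BAM8 are transcription factors with a beta-amylase-like domain. BAM7 had a log2 fold change of -0.05 in melinoe (adjusted p = 0.521) and rose with riboflavin, at 0.20 (adjusted p = 0.00325), by edgeR's quasi-likelihood test. BAM8 fell in both by edgeR's quasi-likelihood test, at -0.21 (adjusted p = 0.0367) and -0.31 (adjusted p = 4.93e-04). Coding sequences of these 9 genes had aligned identities of 58.9% to 69.4% over 36 pairs, 64.3% for BAM5 and CT-BMY, and no pair shared a run of 25 bases.

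**Figure D3:**
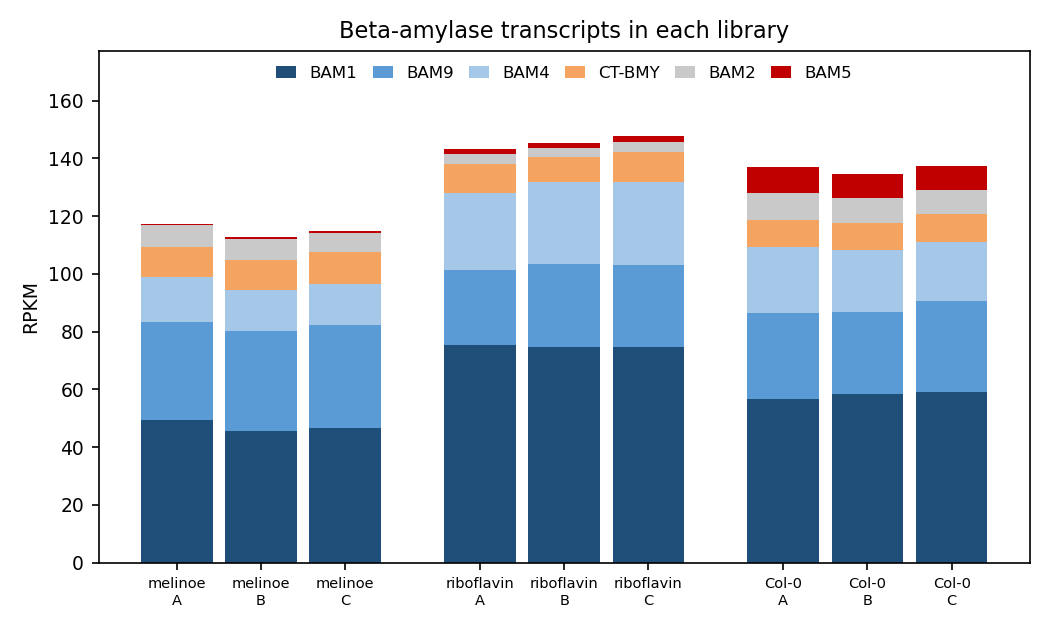
Levels of 6 beta-amylase genes stacked in each library (vertical axis from 0, RPKM; bars are single libraries) of melinoe, riboflavin-treated Col-0 and untreated Col-0; BAM6, with 0 to 3 counts, is left out. BAM1 held the largest share in every library, and BAM5 held 0.384% in melinoe and 1.29% with riboflavin, against 6.27% in Col-0.

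Of the enzymes that add and remove starch phosphate, SEX1 is the glucan, water dikinase. SEX1 had 10.7, 11.1 and 11.2 RPKM in melinoe, 14.5, 14.4 and 14.3 RPKM with riboflavin and 15.6, 15.9 and 15.6 RPKM in Col-0. The melinoe libraries stood apart from the other 6, and the riboflavin libraries lay below those of Col-0 without overlap. SEX1 fell in melinoe by edgeR's quasi-likelihood test (log2 fold change -0.48 ± 0.0431 SE, adjusted p = 3.04e-10). With riboflavin it passed edgeR's quasi-likelihood test narrowly (log2 fold change -0.09 ± 0.0409 SE, adjusted p = 0.0468), and the call was lost in 10 of 15 alternatives, where the adjusted p ran from 0.00148 to 0.129 and the log2 fold change from -0.15 to -0.08. Leaving out any 1 of the 6 libraries lost it, with log2 fold changes of -0.10 to -0.08. The authors' deposited table gives a q-value of 0.155.

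SEX4 is a phosphatase that removes phosphate from starch. SEX4 had 7.66, 7.82 and 8.85 RPKM in melinoe, 9.11, 8.51 and 9.54 RPKM with riboflavin and 14.8, 14.7 and 14.9 RPKM in Col-0. Every Col-0 library was above every other library, and the melinoe and riboflavin libraries overlapped. SEX4 fell in melinoe (log2 fold change -0.83 ± 0.0674 SE, adjusted p = 3.85e-11) and with riboflavin (log2 fold change -0.67 ± 0.0636 SE, adjusted p = 3.30e-10) by edgeR's quasi-likelihood test. LSF2, another glucan phosphatase, fell in both, at -0.65 and -0.70, as did LSF1, a relative needed for breakdown, at -0.33 and -0.75. PWD (AT5G26570), the dikinase that acts after SEX1, fell in melinoe, at -0.33, and rose with riboflavin, at 0.35. GWD2 (AT4G24450), a dikinase outside the chloroplast, fell in melinoe, at -0.58, and rose with riboflavin, at 0.42.

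Of the enzymes that cut branches and chains, ISA3 is the isoamylase that debranches glucans during breakdown. ISA3 had 4.41, 4.82 and 4.58 RPKM in melinoe, 5.88, 6.66 and 6.16 RPKM with riboflavin and 8.74, 8.08 and 7.57 RPKM in Col-0. The groups did not overlap, and melinoe was lowest. ISA3 fell in melinoe (log2 fold change -0.78 ± 0.0717 SE, adjusted p = 4.25e-10) and with riboflavin (log2 fold change -0.35 ± 0.0691 SE, adjusted p = 6.81e-05) by edgeR's quasi-likelihood test. LDA, the limit dextrinase that also debranches, fell at -0.83 in melinoe and -1.30 with riboflavin.

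AMY3 is the alpha-amylase of the chloroplast. AMY3 had 11.2, 12.4 and 12.2 RPKM in melinoe, 10.3, 9.83 and 10.3 RPKM with riboflavin and 16.5, 16.2 and 18.0 RPKM in Col-0. Col-0 was highest without overlap, and riboflavin lowest. AMY3 fell in melinoe (log2 fold change -0.47 ± 0.0522 SE, adjusted p = 2.12e-08) and with riboflavin (log2 fold change -0.70 ± 0.0514 SE, adjusted p = 1.79e-12) by edgeR's quasi-likelihood test. AMY1 is a secreted alpha-amylase. AMY1 had 0.593, 0.514 and 0.568 RPKM in melinoe, 5.79, 4.81 and 5.66 RPKM with riboflavin and 1.250, 1.36 and 1.16 RPKM in Col-0. AMY1 fell in melinoe, at -1.13, and rose with riboflavin, at 2.14, with only 19, 17 and 19 counts in melinoe. AMY2 fell in melinoe, at -0.45, and had -0.05 with riboflavin (edgeR's quasi-likelihood test, adjusted p = 0.530).

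Of the proteins that handle maltose, MEX1 is the exporter of the chloroplast envelope. MEX1 had 6.81, 6.77 and 7.08 RPKM in melinoe, 4.18, 3.91 and 4.28 RPKM with riboflavin and 9.89, 8.60 and 8.98 RPKM in Col-0. The groups did not overlap, and here riboflavin, not melinoe, was lowest. MEX1 fell in melinoe (log2 fold change -0.38 ± 0.0777 SE, adjusted p = 2.06e-04) and with riboflavin (log2 fold change -1.12 ± 0.0862 SE, adjusted p = 5.44e-12) by edgeR's quasi-likelihood test.

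DPE2 is the cytosolic glucanotransferase that uses exported maltose. DPE2 had 11.1, 10.5 and 10.3 RPKM in melinoe, 9.69, 9.97 and 9.49 RPKM with riboflavin and 14.3, 14.2 and 14.2 RPKM in Col-0. The Col-0 libraries lay close together and above the other 6. DPE2 fell in melinoe (log2 fold change -0.39 ± 0.0486 SE, adjusted p = 1.47e-07) and with riboflavin (log2 fold change -0.51 ± 0.0478 SE, adjusted p = 2.31e-10) by edgeR's quasi-likelihood test. DPE1, the disproportionating enzyme of the chloroplast, fell at -0.54 in melinoe and -0.77 with riboflavin, and the plastid glucose transporter pGlcT at -0.36 and -0.24. PHS1, the chloroplast glucan phosphorylase, fell at -0.69 and -1.07. Its cytosolic counterpart PHS2 fell in melinoe, at -0.24, and had 0.01 with riboflavin (edgeR's quasi-likelihood test, adjusted p = 0.890).

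Melinoe was also set directly against riboflavin-treated Col-0, which tests whether their departures from Col-0 differed. Of the 8 genes, 4 were lower and 3 higher in melinoe, where 37.0% of the 20344 genes tested were lower and 37.1% higher, and 6 did not overlap after scaling, where 75.4% of genes did not. The median log2 fold change was -0.03 for the 8, 0.10 without BAM5, which turns its direction, and 0.0024 for all genes tested. BAM5 was lower in melinoe by edgeR's quasi-likelihood test (log2 fold change -2.09 ± 0.188 SE, adjusted p = 3.14e-11), the only one of the 8 at least 2-fold lower, as were 7.43% of genes. Its size was -1.35 with limma on log2(CPM + 1), still called. ISA3 at -0.45 (adjusted p = 2.97e-06) and SEX1 at -0.40 (adjusted p = 1.07e-09) were also lower by edgeR's quasi-likelihood test. MEX1 at 0.73 (adjusted p = 1.49e-08) and AMY3 at 0.22 (adjusted p = 4.05e-04) were higher by edgeR's quasi-likelihood test.

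By edgeR's quasi-likelihood test, SEX4 passed narrowly at -0.17 (adjusted p = 0.0476; 0.0123 to 0.183 under the alternatives), a call lost in 11 of 15. These include the fits without melinoe library A, at -0.13, or B, at -0.13, and without riboflavin library A, at -0.16, or C, at -0.13. DPE2 passed as narrowly by edgeR's quasi-likelihood test, at 0.11 (adjusted p = 0.0483; 0.00469 to 0.184 under the alternatives), a call lost in 6 of 15. These include the fits without melinoe library A, at 0.0859, and without riboflavin library A, at 0.112, or C, at 0.0956. CT-BMY had 0.10, with a 95% interval of -0.03 to 0.24 (edgeR's quasi-likelihood test, adjusted p = 0.166; 0.0361 to 0.698 under the alternatives), and passed with upper quartile scaling, at 0.16. It had 0.0312 without riboflavin library B and 0.157 without riboflavin library C, neither of which passed.

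The order of the levels per transcript length differed between groups. Each length is that of the transcript with the longest coding sequence, so the order across genes depends on that choice. In melinoe AMY3 came first with 11.9 ± 0.623 RPKM (SD, n = 3). It was only narrowly apart from SEX1, with a lowest AMY3 library of 11.22 RPKM and a highest SEX1 library of 11.20 RPKM. SEX1, DPE2 and CT-BMY overlapped in turn between 10.997 ± 0.253 and 10.6 ± 0.207 RPKM (SD, n = 3). SEX4 with 8.11 ± 0.646, MEX1 with 6.89 ± 0.168, ISA3 with 4.61 ± 0.205 and BAM5 with 0.441 ± 0.0640 RPKM followed, each apart from the one above (SD, n = 3). With riboflavin SEX1 came first with 14.4 ± 0.103 RPKM, apart from AMY3, CT-BMY, DPE2 and SEX4, which overlapped in turn from 10.1 ± 0.267 to 9.05 ± 0.518 RPKM (SD, n = 3). ISA3 with 6.23 ± 0.396, MEX1 with 4.12 ± 0.192 and BAM5 with 1.88 ± 0.178 RPKM followed apart (SD, n = 3). In Col-0 AMY3 with 16.9 ± 0.990, SEX1 with 15.7 ± 0.181, SEX4 with 14.8 ± 0.118 and DPE2 with 14.2 ± 0.0570 RPKM each stood apart (SD, n = 3). CT-BMY with 9.42 ± 0.249, MEX1 with 9.16 ± 0.660, BAM5 with 8.55 ± 0.356 and ISA3 with 8.13 ± 0.585 RPKM overlapped in turn (SD, n = 3). BAM5 thus overlapped MEX1 and ISA3 in Col-0, and lay below the other 7 in melinoe and with riboflavin.

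Of 18 other starch breakdown genes, 17 were tested, and in melinoe 15 fell, 1 rose and 1 missed the threshold, with median -0.45, where 25.2% of all genes tested fell and 25.4% rose, with median -0.0032. BAM9 was the one that rose, and ESV1, a protein that binds starch granules, had 0.10 (edgeR's quasi-likelihood test, adjusted p = 0.313). With riboflavin 9 fell, 5 rose and 3 missed it, with median -0.24, where 37.4% of all genes fell and 36.8% rose, with median -0.0027. AMY1, GWD2, BAM1, BAM4 and PWD rose with riboflavin, and all 5 fell in melinoe. These 5 were named for opposite directions from the same Col-0 libraries, so a lower level in melinoe than with riboflavin follows from that choice. Set directly against riboflavin, their log2 fold changes ran from -3.28 for AMY1 to -0.68 for BAM1. Of the 17 tested, 7 were higher and 8 lower in melinoe than with riboflavin, where 37.1% of all genes were higher and 37.0% lower. ESV1 fell with riboflavin, at -0.64, and its relative LESV fell in both, at -0.51 and -0.55.

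Of the starch synthesis genes, 15 of 18 fell in melinoe (median -0.32) and 15 of 18 with riboflavin (median -0.65). Of all genes tested, 25.2% fell in melinoe (median -0.0032) and 37.4% with riboflavin (median -0.0027). In melinoe the lowest were the starch synthase SS3 at -0.71, PTST1, which brings granule-bound starch synthase to starch, at -0.69, and the isoamylase ISA1 at -0.57. GBSS1, the granule-bound starch synthase, was the only one that rose there, at 0.42. With riboflavin the lowest were subunits of ADP-glucose pyrophosphorylase, which makes the substrate of starch synthesis, with APL4 at -1.44, APS1 at -1.38 and APL3 at -1.25. PGI1, the plastid phosphoglucose isomerase, was the only one that rose with riboflavin, at 0.15.

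**Figure D4:**
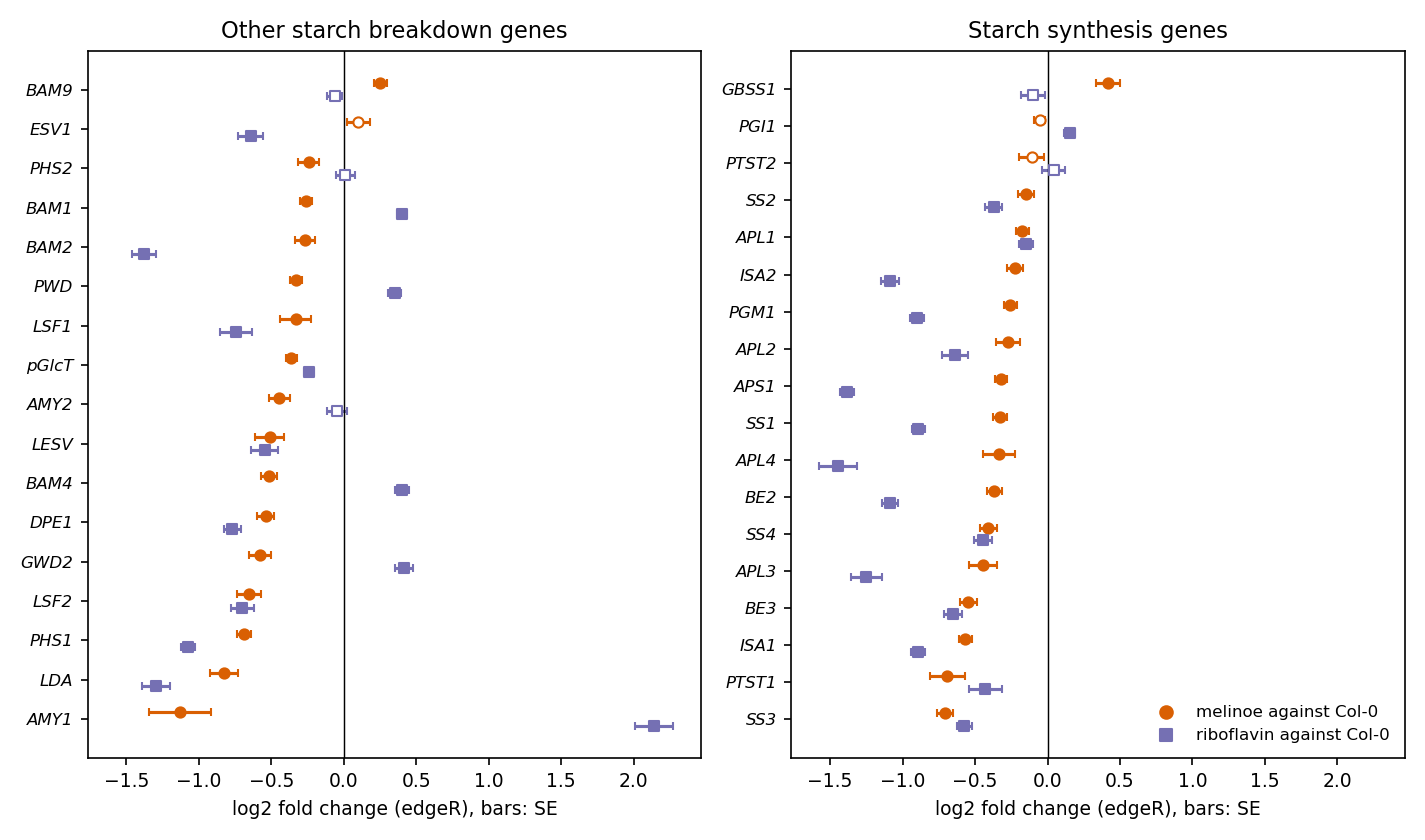
Log2 fold changes (horizontal axis, edgeR estimate with its standard error) of 17 other starch breakdown genes, left, and 18 starch synthesis genes, right, in melinoe against Col-0 and in riboflavin-treated against untreated Col-0; open symbols did not pass an adjusted p of 0.05. AMY1, GWD2, BAM1, BAM4 and PWD lie below 0 in melinoe and above 0 with riboflavin; both comparisons share the Col-0 libraries.

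Library totals were 19964402 to 20818013 counts in melinoe, 20677749 to 21103222 with riboflavin and 20972520 to 21421421 in Col-0. Markers of leaf, root and phloem were detected in each group. Beside the marker counts below, 25.2% of all genes tested fell and 25.4% rose in melinoe, and 37.4% fell and 36.8% rose with riboflavin. The 5 leaf markers summed to 12666 to 13237 RPKM in melinoe, 4862 to 4915 RPKM with riboflavin and 16123 to 16661 RPKM in Col-0, and 5 of 5 fell in each comparison with Col-0. The 6 phloem markers summed to 220.5 to 223 RPKM in melinoe, 186 to 195 RPKM with riboflavin and 230.0 to 238 RPKM in Col-0. Of these, 2 fell and 1 rose in melinoe, with log2 fold changes of -0.44 to 0.13, and 3 fell with riboflavin, with -0.33 to 0.08; BAM5 had -4.23 and -2.15. The 6 root markers summed to 124 to 130.4 RPKM in melinoe, 112 to 119 RPKM with riboflavin and 135 to 147 RPKM in Col-0, with 4 lower and 1 higher in melinoe, ESB1 at 0.13, and 5 lower and 1 higher with riboflavin, EXPA7 at 0.55. The part of these shifts in the results was not tested.

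Clock transcripts, which follow the time of day, also differed from Col-0. Of 9 clock genes, 7 rose and 1 fell in melinoe, where 25.4% of all genes tested rose and 25.2% fell. Among them were PRR9 at 0.83, LUX at 0.59 and PRR7 at -0.62. PRR5 had the highest log2 fold change of the 9 there, at 2.00, on mean counts of 86 in melinoe and 22.7 in Col-0. With riboflavin 9 rose, where 36.8% of all genes did, with PRR5 at 2.91, PRR9 at 0.93 and CCA1 at 0.50. Their part in the starch results was not tested. Of 10 jasmonate genes, 10 fell in melinoe, where 25.2% of all genes did, among them AOC2 at -3.26, JAZ10 at -1.56 and AOS at -1.22. With riboflavin 8 rose, where 36.8% of all genes did, among them AOC2 at 2.17, AOC1 at 1.89 and VSP1 at 1.48. AOC1 and AOC2 are close paralogs, so their counts are uncertain where reads could be split between them. The other 2 fell with riboflavin, where 37.4% of all genes did, MYC2 at -1.03 and JAZ1 at -0.49.

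Genes whose pattern was most like that of each of the 8 were taken by Pearson's r of log2 CPM over the 9 libraries, among 16502 other genes averaging 100 counts or more in some group. The libraries form 3 groups, so r mainly follows the group means and is a description. For BAM5 they were AT4G36850, HB-2 and GGT1, with r up to 0.9981, and HB-2, a homeobox gene, had log2 fold changes of -2.07 in melinoe and -1.12 with riboflavin. For MEX1 they were AT2G02780, SBE2.2 and AT1G01540, with r up to 0.9974, and SBE2.2, a starch branching enzyme of the synthesis list, had -0.37 and -1.09. SEX1 was most like AT4G36520, LOX4 and MC7, with r up to 0.9961, and SEX4 most like RAD23C, AT2G32870 and BGLU21, with r up to 0.9926. DPE2 was most like GSTF11, AT4G01330 and AK3, with r up to 0.9928, and AMY3 most like GAUT15, AT3G42850 and PUP14, with r up to 0.9935. ISA3 was most like JAZ1, AT3G27210 and AOC3, with r up to 0.9832. CT-BMY had the least close match, ENGase85A, MAKR5 and LEP, with r up to 0.953. The 3 named were not alone: r was above 0.99 for 66 genes with MEX1, 16 with BAM5, 15 with SEX1 and 9 with DPE2. It was above 0.99 for 2 genes with AMY3, 1 with SEX4 and 0 with ISA3 or CT-BMY.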

How the data were processed

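Seedling RNA was measured by the authors in 9 libraries, called biological replicates in the labels. The submitters' processing notes name Bowtie2, RSEM and DESeq2 with TAIR10, and the design text names SOAPnuke 1.5.2 and HISAT2 2.0.4, so the aligner is not settled. The deposited expected counts are not normalized, per the file headers; 1.9% were not whole, and all were rounded. The deposited TPM columns of single libraries, 12 in number, were left out because their letters match no single sample; the authors' mean TPM was not used, so levels are RPKM computed from counts and RefSeq transcript lengths, and the planned limma fits on TPM were not run. The authors' deposited log2 fold changes and p-values or q-values are printed only where named. The melinoe table (24242 genes) and the riboflavin table (24249 genes) were joined; 386 and 393 genes found in 1 table had 0 counts in Col-0 and were set to 0 in the missing group.

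Each comparison used its 6 libraries in edgeR 4.0.16 (R 4.3.3): filterByExpr (minimum count 10, total 15), TMM, the quasi-likelihood test without covariates, and Benjamini-Hochberg adjustment over all genes tested. Standard errors came from the fold change and its F statistic. Alternatives were DESeq2 1.42.0, its size factors, upper quartile scaling, no filter, mean counts from 50 up, all 9 libraries, the column letters as a block, a 2-fold threshold, leaving out each library and, chosen after seeing the data, limma 3.58.1 on log2(CPM + 1) or log2(CPM + 0.1). Steps were also run on simulated data with far fewer changed genes than were called here. That run does not check scaling at this extent of change.

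The 8 genes and all lists were chosen with earlier results of these data known. Any starch breakdown gene could be named, as could the 3 genes most like each of the 8. Of synthesis, clock and jasmonate genes, the 3 highest and 3 lowest called ones that averaged 100 counts or more in the higher group could be named. PRR5 in melinoe against Col-0, under that count, was given as well because its change was the highest of the clock genes.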

Additional observations from a re-analysis of the deposited data

How the results depend on the processing

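Of 359 recomputed log2 fold changes of the 8 genes, none changed direction, 330 kept their side of the threshold, 27 lost a call and 2 gained one. With riboflavin against Col-0, SEX1 lost its call with DESeq2 size factors (-0.0878), DESeq2 (-0.0878), no filter (-0.0912) and the replicate block (-0.0913), and ran from -0.101 to -0.0813 without single libraries. CT-BMY ran from 0.0369 to 0.163 there, so that 0 to 1 of the 8 were higher. In melinoe against riboflavin, CT-BMY gained a call with upper quartile scaling (0.156). SEX4 missed the threshold with upper quartile scaling (-0.114), DESeq2 (-0.171), no filter (-0.166), mean counts from 50 up (-0.157), all 9 libraries (-0.154) and limma on log2(CPM + 1) (-0.149) and log2(CPM + 0.1) (-0.159), and ran from -0.238 to -0.128 without single libraries. DPE2 missed it with DESeq2 size factors (0.113), DESeq2 (0.113) and no filter (0.117), and ran from 0.0859 to 0.137 without single libraries. Mean counts from 50 up removed BAM5 from that test, which with SEX4 left 2 of the 8 lower. The cause of the other changes was not tested. At 2-fold or more in melinoe against Col-0, 1230 genes were called (744 higher, 486 lower), of the 8 genes 1 (0 higher, 1 lower); with riboflavin against Col-0, 3591 genes were called (1567 higher, 2024 lower), of the 8 genes 2 (0 higher, 2 lower); in melinoe against riboflavin, 3467 genes were called (1955 higher, 1512 lower), of the 8 genes 1 (0 higher, 1 lower). The column letters did not pair the libraries (correlations of deviations across genes -0.0231 to 0.0379), and the replicate block changed no other call of the 8 genes. Counts of 16, 18 and 22 limit the precision of BAM5 in melinoe. The planned limma fits on TPM were not run. How the replicate cultures were kept apart is not stated, so p-values measure the spread between these libraries.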
